A study of Homo sapiens with 15 samples.

Results

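Lysosome and autophagy genes were followed in C42B cells, a human prostate cancer line descended from LNCaP that grows without androgen, after 6 h of drug treatment. The set was a list of 43 named genes covering lysosomal membrane proteins, acid hydrolases, the lysosomal proton pump, the factors that control lysosomal gene expression, and proteins that build the autophagosome. It was matched by gene symbol to the arrays, and 41 of the 43 were measured, among 17687 genes with a symbol. NEU1 and NPC2 were not analysed here. Each of the 41 members was read by a single probe set.

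The series held 15 Affymetrix arrays of C42B cells in 6 groups, and its design asks how inhibitors of sphingosine kinase act with and without androgen receptor blockade. The DMSO group received the vehicle at 0.125% (3 arrays). The enzalutamide group received 10 µM of this androgen receptor antagonist (2 arrays). The PF-543 group received 15 µM of this sphingosine kinase inhibitor (3 arrays), and the ABC294640 group received 15 µM of another one (1 array). The last groups received enzalutamide plus PF-543 (3 arrays) or enzalutamide plus ABC294640 (3 arrays). All arrays were of 1 cell line at 1 time, and the labels do not say whether replicates came from separate cultures, so the p-values reflect only how far these samples differ within a group, and that spread may be technical.

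Values were log2 expression after normalization by the authors. Array medians lay between 6.71 and 6.76, no arrays were identical, and the lowest correlation between any pair of arrays was 0.9942. The first principal component, with 15.3% of the variance, set the 3 DMSO arrays (18.9 to 24.8) apart from all treated arrays (-11.6 to 0). All 8 measured prostate luminal markers of 10 listed lay above the median gene on average, while basal, neuroendocrine, endothelial and leukocyte markers all lay below it. Of 5 fibroblast markers, 1 lay above it. The number of arrays per group limits the precision, above all for the single ABC294640 array, whose spread was taken from the other groups.

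Lysosomes are acidified compartments in which hydrolases break down proteins, lipids and glycans. Autophagy delivers cytoplasmic cargo to them in double-membraned autophagosomes, which carry lipidated ATG8 proteins such as LC3B and GABARAPL1. TFEB, TFE3 and MITF are related transcription factors that bind short E-box sequences near many of these genes, and the Rag GTPases and folliculin on the lysosome keep them in the cytoplasm while nutrients are plentiful. Sphingosine kinases phosphorylate sphingosine, which is released in the lysosome when ceramide is broken down.

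The promoter sequences below are shown because they carry the E-box that these factors read. RefSeq promoters (GRCh38.p14, 300 bases each) were found for 30 of the 41 measured members. The motif TCACGTG, searched on both strands, was in 8 of these 30, which is 26.7%, against 4.71% of the promoters of all measured genes. The shorter motif CACGTG, which lies within TCACGTG and reads the same on both strands, was in the same number of members (26.7%), against 8.69% of the promoters of all measured genes. The genes were LAMP1, MCOLN1, CTSA, CTSD, ATP6V0D1, FNIP1, RRAGC and ATG14. Because these factors bind near many genes of this set, the higher share may follow from the choice of genes, and this was not tested. A match is a stretch of letters, not a measured binding site. Capitals mark CACGTG, and each line runs 5′ to 3′ in the direction of the gene.
LAMP1, chr13:113297035-113297114, + strand: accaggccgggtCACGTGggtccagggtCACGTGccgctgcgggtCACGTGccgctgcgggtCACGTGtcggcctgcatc
LAMP1, chr13:113297199-113297255, + strand: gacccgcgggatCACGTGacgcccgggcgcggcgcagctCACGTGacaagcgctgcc
MCOLN1, chr19:7522571-7522627, + strand: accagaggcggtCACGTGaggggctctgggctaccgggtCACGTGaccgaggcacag
CTSA, chr20:45891281-45891327, + strand: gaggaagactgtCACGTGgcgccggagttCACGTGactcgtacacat
CTSD, chr11:1763957-1763986, - strand: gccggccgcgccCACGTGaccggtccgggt
ATP6V0D1, chr16:67481199-67481228, - strand: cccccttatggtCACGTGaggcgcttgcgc
FNIP1, chr5:131797175-131797204, - strand: ccccgcccctgcCACGTGacgggacccgcc
FNIP1, chr5:131797094-131797123, - strand: tccgcgcgccgcCACGTGatgcggcccccc
RRAGC, chr1:38859867-38859896, - strand: aggtgattccggCACGTGacggggcaccac
ATG14, chr14:55411834-55411863, - strand: aaaacaaaatccCACGTGactggctctcct

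None of the 41 measured members passed the test in any comparison. Over 13 contrasts fitted with limma and a test of any difference among the 6 groups, 0 of the 41 members had an adjusted p under 0.05, where p-values were adjusted by the Benjamini-Hochberg method over all 17687 genes. In the test of any difference, 0.78% of all genes passed. The smallest adjusted p of a member there was 0.157, for GABARAPL1. At an unadjusted p under 0.05 that test held 9 members (LAMP1, NPC1, TFE3, MITF, FNIP1, FNIP2, RRAGC, MAP1LC3B and GABARAPL1), against 14.8% of all genes. An alternative limma fit with a robust and trended prior passed 4 members there, which were NPC1, MITF, RRAGC and MAP1LC3B. That prior passed 741 of the 17687 genes, against 138 as first fitted.

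The members also varied little. Their median SD within groups was 0.125 (from 0.052 to 0.275), against 0.18 over all genes. The spread between the highest and the lowest group mean had a median of 0.277 over the members and 0.357 over all genes. It was smallest for the V-ATPase subunit ATP6V0E1 (0.09) and largest for MITF (0.97). Most members were brighter than the median gene (7.06), and the members were not compared with genes of like brightness.

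**Figure D1:**
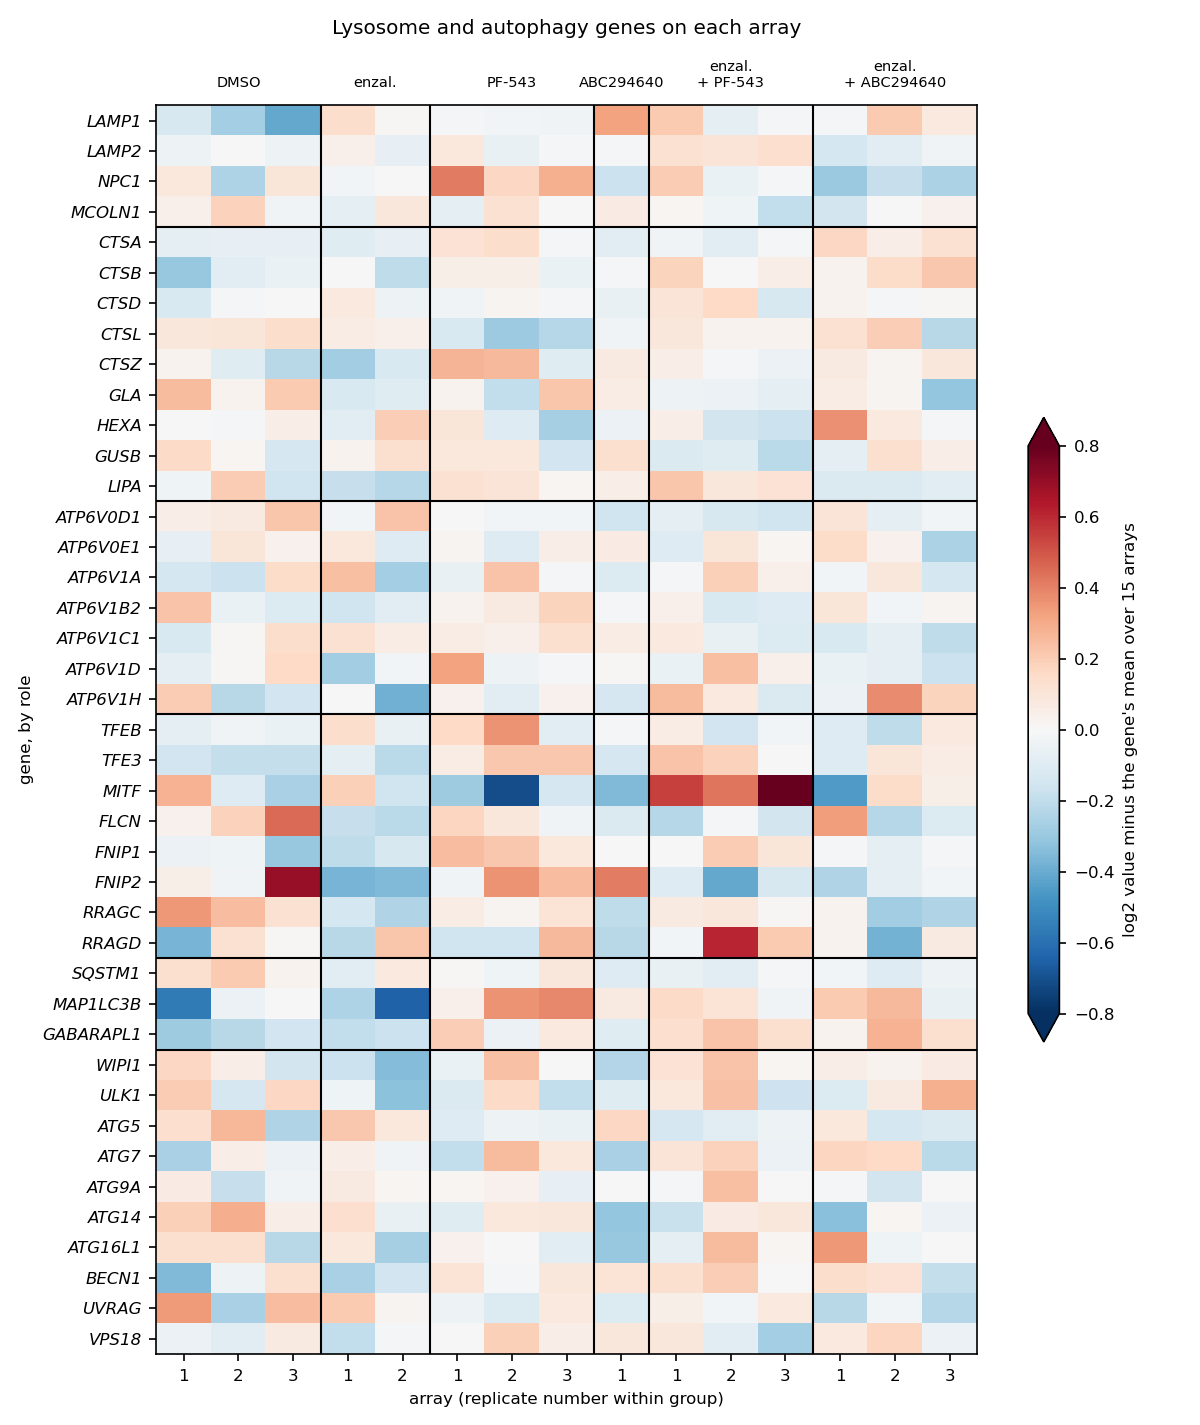
Each cell shows a member's log2 value on 1 array minus its mean over the 15 arrays, with genes ordered by role down the side and arrays ordered by group across. Red is above the gene's mean and blue below it, and MITF, whose group means span 0.97, has the strongest colours, while ATP6V0E1, whose group means span 0.09, is pale throughout.

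GABARAPL1 had the smallest adjusted p of the set for the mean of the PF-543 comparisons with and without enzalutamide, and TFE3 had it for PF-543 against DMSO. GABARAPL1 encodes an ATG8 protein that is attached to the autophagosome membrane. Its values were 9.59, 9.65 and 9.72 on the DMSO arrays and 9.68 and 9.70 with enzalutamide. They were 10.07, 9.83 and 9.95 with PF-543 and 9.78 with ABC294640. With enzalutamide plus PF-543 they were 10.01, 10.10 and 10.00, and with enzalutamide plus ABC294640 they were 9.90, 10.15 and 10.00. All 10 arrays that received either inhibitor (9.78 to 10.15) lay above all 5 that received neither (9.59 to 9.72). GABARAPL1 was the only member whose arrays separated this way, and 0.452% of all genes had arrays that did not overlap in this split.

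The log2 difference in GABARAPL1 between PF-543 and DMSO was 0.30 (SE 0.093, limma adjusted p = 0.161). Between enzalutamide plus PF-543 and enzalutamide alone it was 0.35 (SE 0.105, limma adjusted p = 0.429). These comparisons share no array. Their mean, called the mean PF-543 effect here, was 0.32 (SE 0.070, 95% interval 0.17 to 0.47, limma adjusted p = 0.0738), or 1.25-fold. In the combination of enzalutamide with PF-543 against DMSO the difference was 0.38 (limma adjusted p = 0.0538). When the dimmest 25% of genes were left out of the test, GABARAPL1 passed in these last comparisons, with limma adjusted p-values of 0.0426 for the mean effect and 0.0323 for the combination. The genes that passed under this filter numbered 132 and 549.

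MAP1LC3B encodes LC3B, the ATG8 protein most used as a mark of autophagosomes. It has a near-identical copy in the genome, so its probe set may read both. Its values were 9.24, 9.76 and 9.81 with DMSO, 9.56 and 9.16 with enzalutamide, and 9.88 with ABC294640. They were 9.85, 10.17 and 10.19 with PF-543, then 9.96, 9.92 and 9.78 with enzalutamide plus PF-543, and 10.02, 10.07 and 9.75 with enzalutamide plus ABC294640. DMSO replicate 1 and the second enzalutamide array were low. The PF-543 arrays all lay above the DMSO arrays, while each combination overlapped DMSO. The log2 difference was 0.47 for PF-543 against DMSO and 0.53 for PF-543 added to enzalutamide, with a mean of 0.50 (SE 0.124, limma adjusted p = 0.104). With ABC294640 added to enzalutamide it was 0.59 (SE 0.184, limma adjusted p = 0.612).

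SQSTM1 encodes p62, a receptor that tethers cargo to ATG8 proteins and is itself degraded by autophagy. Its levels stayed in a narrow band. Its values were 12.88, 12.96 and 12.78 with DMSO, 12.67 and 12.83 with enzalutamide, 12.76, 12.72 and 12.84 with PF-543, and 12.65 with ABC294640. They were 12.69, 12.67 and 12.74 with enzalutamide plus PF-543, and 12.73, 12.65 and 12.71 with enzalutamide plus ABC294640. Over the 13 contrasts its log2 differences ran from -0.22 to 0.05. DMSO had the highest group mean. The ABC294640 array and both combinations lay below every DMSO array, while enzalutamide and PF-543 alone overlapped DMSO. The differences from DMSO were -0.17 with enzalutamide plus PF-543 (limma adjusted p = 0.289) and -0.18 with enzalutamide plus ABC294640 (limma adjusted p = 0.325).

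**Figure D2:**
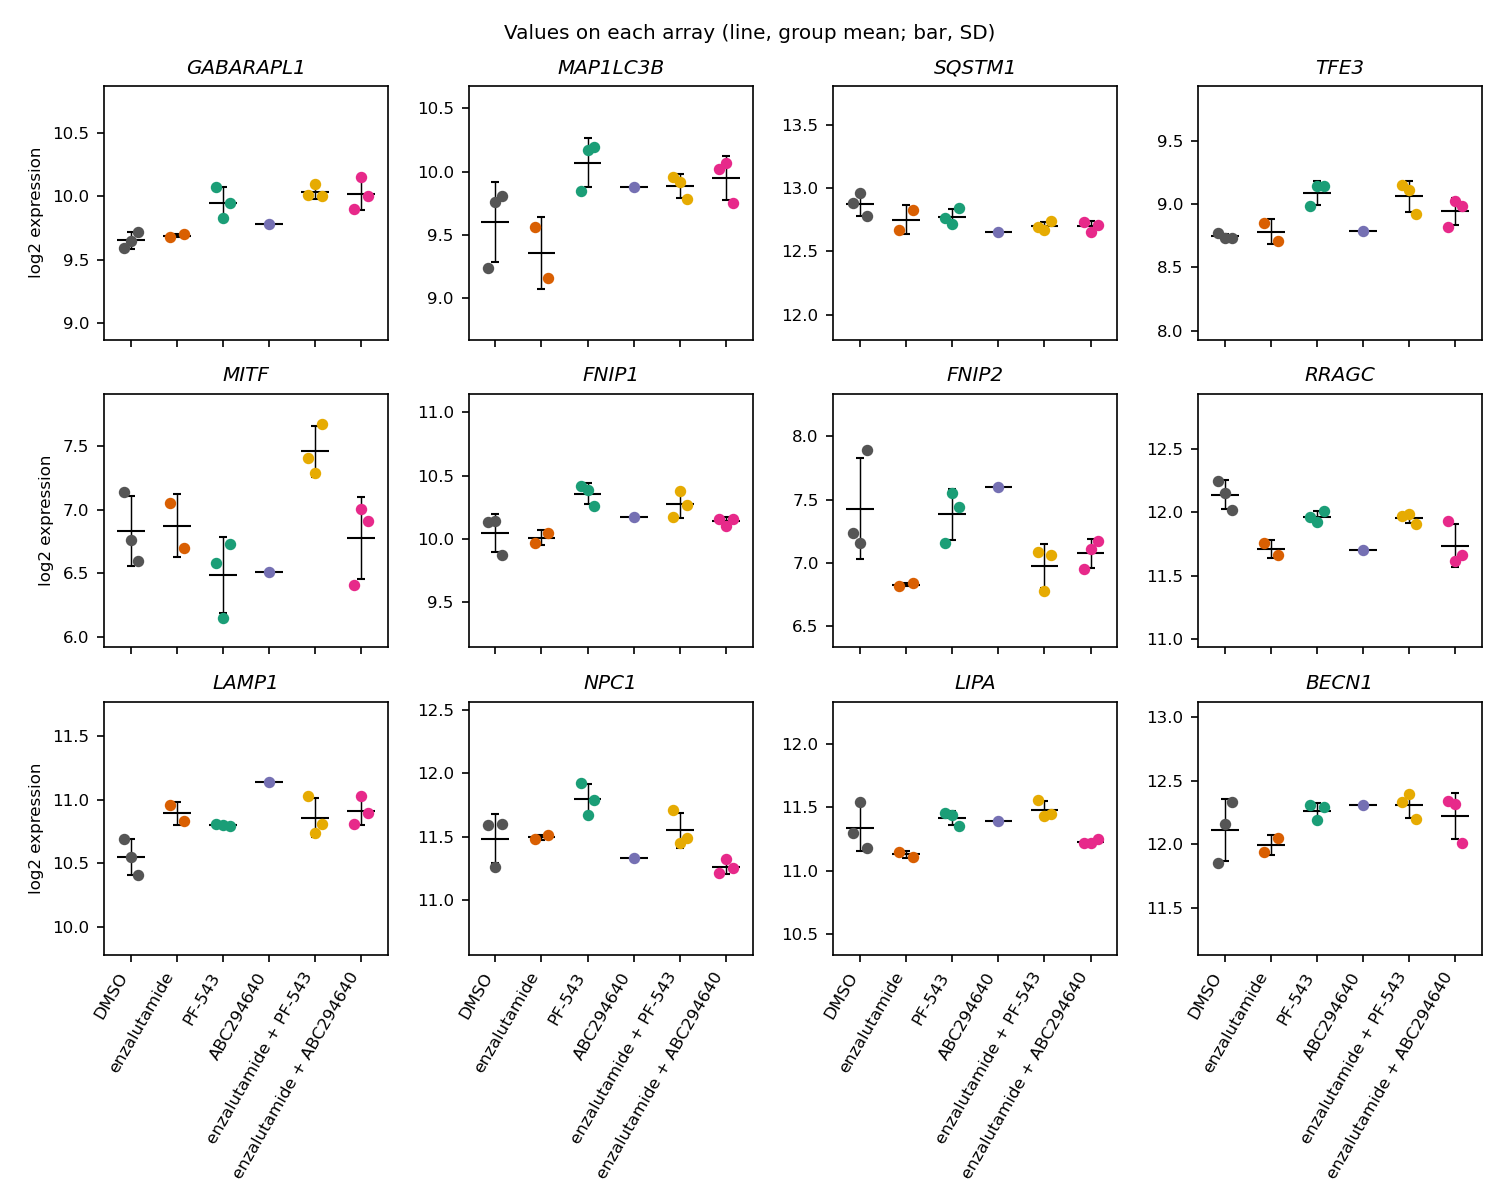
Points are log2 values on each array for 12 members, lines are group means and bars are SDs (the single ABC294640 array has none), and each panel spans 2 log2 units around its own gene. The GABARAPL1 points with either inhibitor (9.78 to 10.15) lie above those without (9.59 to 9.72), the MITF points are highest with enzalutamide plus PF-543, and the LAMP1 points are lowest with DMSO.

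Of the transcription factors of the family, TFE3 was higher in the samples with PF-543, MITF in those with both PF-543 and enzalutamide, and TFEB was dim, though none passed the test. TFE3 values were 8.77, 8.73 and 8.73 with DMSO, 8.85 and 8.71 with enzalutamide, and 8.79 with ABC294640. They were 8.98, 9.14 and 9.14 with PF-543 and 9.15, 9.11 and 8.92 with enzalutamide plus PF-543. With enzalutamide plus ABC294640 they were 8.82, 9.02 and 8.98. The PF-543 arrays lay above the DMSO arrays, and those of the combination with PF-543 lay above the enzalutamide arrays. The log2 differences were 0.34 (limma adjusted p = 0.117) and 0.28 (limma adjusted p = 0.552), and the mean PF-543 effect was 0.31 (SE 0.071, limma adjusted p = 0.0847), or 1.24-fold. A rise was not confined to PF-543. The TFE3 arrays of enzalutamide plus ABC294640 also lay above the DMSO arrays, by 0.20 (limma adjusted p = 0.33), but overlapped those of enzalutamide alone.

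MITF, the family member best known for its role in melanocytes, had the widest range of all members. Its values were 7.14, 6.76 and 6.60 with DMSO, 7.05 and 6.70 with enzalutamide, and 6.51 with ABC294640. With PF-543 they were 6.58, 6.15 and 6.73, and with enzalutamide plus PF-543 they were 7.41, 7.29 and 7.68. With enzalutamide plus ABC294640 they were 6.41, 7.01 and 6.91. The 3 arrays of enzalutamide plus PF-543 lay above every other array. The ABC294640 array lay below all DMSO and enzalutamide arrays, and the remaining groups overlapped. Enzalutamide added to PF-543 gave a log2 difference of 0.97 (SE 0.201, 95% interval 0.54 to 1.41, limma adjusted p = 0.0794), or 1.96-fold, whereas enzalutamide against DMSO gave 0.04. PF-543 gave -0.35 against DMSO and 0.58 when added to enzalutamide. The difference between these PF-543 effects was 0.93 (SE 0.301, limma adjusted p = 0.481), so a change in the effect with enzalutamide was not detected at this size of design. With the robust and trended prior, the comparison of enzalutamide added to PF-543 passed for MITF, with a limma adjusted p of 0.00699.

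TFEB was listed between 2.93 and 3.49 on all 15 arrays, below the first quartile of every array (4.57 to 4.69). Its differences over the contrasts ran from -0.27 to 0.19, and no detection call was at hand to say whether the probe set was above background.

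Folliculin (FLCN) and its partners FNIP1 and FNIP2 act on the Rag GTPases RRAGC and RRAGD at the lysosome, upstream of TFEB and TFE3. FNIP1 values were 10.13, 10.14 and 9.87 with DMSO, 9.97 and 10.05 with enzalutamide, and 10.17 with ABC294640. They were 10.42, 10.39 and 10.26 with PF-543 and 10.17, 10.38 and 10.27 with enzalutamide plus PF-543. With enzalutamide plus ABC294640 they were 10.16, 10.10 and 10.16. Both groups with PF-543 lay above their counterparts without it, by 0.31 and 0.26 on the log2 scale. The mean PF-543 effect on FNIP1 was 0.29 (SE 0.073, limma adjusted p = 0.108).

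FNIP2 was lower in the samples with enzalutamide. Its values were 7.24, 7.16 and 7.89 with DMSO, 7.16, 7.55 and 7.44 with PF-543, and 7.60 with ABC294640. With enzalutamide they were 6.82 and 6.84, with enzalutamide plus PF-543 7.09, 6.78 and 7.06, and with enzalutamide plus ABC294640 6.95, 7.11 and 7.17. The arrays with enzalutamide lay at or below those without, except that the highest of them (7.17) was just above the lowest of the others (7.16). The log2 difference was -0.60 for enzalutamide against DMSO, -0.41 when added to PF-543 and -0.52 when added to ABC294640. The mean enzalutamide effect, averaged over its comparison with DMSO and its addition to PF-543, was -0.50 (SE 0.130, 95% interval -0.78 to -0.22, limma adjusted p = 0.106). DMSO replicate 3 was high, and without it the mean effect was -0.39. No member's arrays separated completely by the presence of enzalutamide (background 0.673%) or of PF-543 (background 0.317%).

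FLCN lay between 7.28 and 7.96 over all arrays, with a difference of -0.42 between enzalutamide and DMSO (SE 0.162, limma adjusted p = 0.294). RRAGD lay between 6.86 and 7.85, with its highest group mean in enzalutamide plus PF-543. RRAGC was lower than DMSO on every treated array. Its values were 12.25, 12.15 and 12.02 with DMSO, 11.76 and 11.66 with enzalutamide, and 11.70 with ABC294640. They were 11.96, 11.92 and 12.01 with PF-543 and 11.97, 11.99 and 11.91 with enzalutamide plus PF-543. With enzalutamide plus ABC294640 they were 11.93, 11.62 and 11.66. The log2 differences from DMSO were -0.43 with enzalutamide (limma adjusted p = 0.147), -0.44 with ABC294640 and -0.40 with enzalutamide plus ABC294640 (SE 0.099, limma adjusted p = 0.0839). They were -0.18 with PF-543 and with enzalutamide plus PF-543. With the robust and trended prior RRAGC passed for enzalutamide (limma adjusted p = 0.0185) and for enzalutamide plus ABC294640 (limma adjusted p = 0.00706).

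LAMP1, a heavily glycosylated protein of the lysosomal membrane, lay on the other side. Its values were 10.69, 10.55 and 10.41 with DMSO, 10.96 and 10.83 with enzalutamide, and 11.14 with ABC294640. They were 10.81, 10.80 and 10.79 with PF-543 and 11.03, 10.74 and 10.81 with enzalutamide plus PF-543. With enzalutamide plus ABC294640 they were 10.81, 11.03 and 10.90. All 12 treated arrays lay above all 3 DMSO arrays. The differences from DMSO were 0.34 with enzalutamide, 0.25 with PF-543, 0.31 and 0.36 with the combinations, and 0.59 (SE 0.148, limma adjusted p = 0.265) with ABC294640. Added to enzalutamide, PF-543 gave -0.04 and ABC294640 gave 0.02. Enzalutamide gave 0.06 when added to PF-543 and -0.23 (SE 0.148, limma adjusted p = 0.856) when added to ABC294640, where the single ABC294640 array lay above all 3 of the combination.

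LAMP1 and RRAGC were the only members whose DMSO and treated arrays did not overlap, which is 2 of 41 against 3.45% of all genes. The comparisons with DMSO share the same 3 arrays, which also stood apart on the first principal component. The first quartiles of these 3 arrays (4.65 to 4.69) also lay above those of all treated arrays (4.57 to 4.63). After quantile scaling, LAMP1 with ABC294640 differed from DMSO by 0.57, against 0.59 as reported. RRAGC with enzalutamide plus ABC294640 differed from DMSO by -0.43, against -0.40. The part of the separation on the first component in the LAMP1 and RRAGC differences was not tested.

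Of the other lysosomal membrane genes, NPC1 varied about as much as LAMP1 over the arrays (0.71 and 0.73 between lowest and highest). NPC1, which exports cholesterol from the lysosome, had values of 11.59, 11.26 and 11.60 with DMSO, 11.48 and 11.51 with enzalutamide, and 11.33 with ABC294640. They were 11.92, 11.67 and 11.79 with PF-543, 11.71, 11.45 and 11.49 with enzalutamide plus PF-543, and 11.21, 11.32 and 11.25 with enzalutamide plus ABC294640. PF-543 alone lay above DMSO by 0.31 (SE 0.113, limma adjusted p = 0.216), and by 0.20 without DMSO replicate 2, whereas PF-543 added to enzalutamide gave 0.06. Of the others, LAMP2, a membrane protein needed for autophagosome clearance, stayed within 12.96 to 13.23, and the calcium channel gene MCOLN1 within 11.95 to 12.33. Within that narrow range, the LAMP2 arrays of enzalutamide plus PF-543 (13.22, 13.20 and 13.23) lay above every other array. Their difference from DMSO was 0.14 (SE 0.078, limma adjusted p = 0.35).

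Of the 10 hydrolases listed, 9 were measured, and they did not move together. With PF-543 against DMSO their log2 differences ran from -0.32 to 0.24 (median 0.04), and with PF-543 added to enzalutamide from -0.22 to 0.35 (median 0.04). LIPA, the acid lipase that frees cholesterol from its esters, had values of 11.30, 11.54 and 11.18 with DMSO, 11.15 and 11.11 with enzalutamide, and 11.39 with ABC294640. They were 11.46, 11.44 and 11.35 with PF-543, 11.56, 11.43 and 11.45 with enzalutamide plus PF-543, and 11.22, 11.22 and 11.25 with enzalutamide plus ABC294640. LIPA overlapped between PF-543 and DMSO (0.08) and differed by 0.35 (SE 0.108, limma adjusted p = 0.445) when PF-543 was added to enzalutamide.

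CTSL encodes cathepsin L, a cysteine protease of the lysosome. Its values were 11.61, 11.62 and 11.66 with DMSO, 11.58 and 11.56 with enzalutamide, and 11.49 with ABC294640. They were 11.40, 11.23 and 11.29 with PF-543, 11.61, 11.55 and 11.55 with enzalutamide plus PF-543, and 11.64, 11.72 and 11.30 with enzalutamide plus ABC294640. PF-543 alone lay below DMSO on all 3 arrays, by -0.32 (SE 0.105, limma adjusted p = 0.171), and PF-543 added to enzalutamide gave 0.00. Cathepsins A, B and Z (CTSA, CTSB, CTSZ) had small positive mean PF-543 effects of 0.10, 0.17 and 0.22. Cathepsin D (CTSD) and the glycosidases GLA, HEXA and GUSB had 0.03, -0.04, -0.12 and -0.11. CTSA and CTSB had their highest group means with enzalutamide plus ABC294640, not with PF-543. That group lay above DMSO by 0.18 for CTSA (limma adjusted p = 0.276) and by 0.28 for CTSB (limma adjusted p = 0.208).

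All 7 V-ATPase subunits were measured. This rotary pump acidifies the lysosome with a membrane sector (V0) and a catalytic sector (V1). Their mean PF-543 effects ran from -0.18 to 0.16 and their mean enzalutamide effects from -0.15 to 0.03. ATP6V0D1, of the membrane sector, had values of 14.06, 14.08 and 14.23 with DMSO, 13.99 and 14.24 with enzalutamide, and 13.85 with ABC294640. They were 14.01, 13.99 and 13.99 with PF-543, 13.93, 13.88 and 13.85 with enzalutamide plus PF-543, and 14.11, 13.93 and 13.99 with enzalutamide plus ABC294640. The arrays of enzalutamide plus PF-543 lay below all DMSO arrays, by -0.24 (SE 0.092, limma adjusted p = 0.186).

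ATP6V1C1, of the catalytic sector, had values of 10.83, 10.96 and 11.09 with DMSO, 11.07 and 11.01 with enzalutamide, and 11.01 with ABC294640. They were 11.01, 10.99 and 11.08 with PF-543, 11.03, 10.89 and 10.84 with enzalutamide plus PF-543, and 10.83, 10.87 and 10.75 with enzalutamide plus ABC294640. ABC294640 added to enzalutamide gave -0.22 (SE 0.102, limma adjusted p = 0.731). The other subunits had ranges over the arrays from 0.39 for ATP6V1B2 to 0.76 for ATP6V1H.

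The 10 genes of autophagosome formation and tethering centred near 0, with a median mean PF-543 effect of 0.06 (from -0.18 for ATG5, part of the ATG8 ligase, to 0.23 for BECN1, a subunit of the lipid kinase complex that starts the autophagosome). WIPI1 binds the lipid made by that complex. Its values were 10.73, 10.62 and 10.42 with DMSO, 10.39 and 10.22 with enzalutamide, and 10.33 with ABC294640. They were 10.51, 10.80 and 10.57 with PF-543, 10.68, 10.79 and 10.58 with enzalutamide plus PF-543, and 10.62, 10.59 and 10.63 with enzalutamide plus ABC294640. The 2 enzalutamide arrays lay below every DMSO array (-0.28) and below both combinations. PF-543 added to enzalutamide gave 0.38 (SE 0.121, limma adjusted p = 0.459) and ABC294640 added to it gave 0.31, but PF-543 against DMSO gave 0.04.

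ATG14 directs the lipid kinase complex to the site of autophagosome formation. Its values were 8.97, 9.07 and 8.83 with DMSO, 8.91 and 8.72 with enzalutamide, and 8.47 with ABC294640. They were 8.68, 8.86 and 8.87 with PF-543, 8.60, 8.84 and 8.87 with enzalutamide plus PF-543, and 8.44, 8.79 and 8.73 with enzalutamide plus ABC294640. It differed from DMSO by -0.49 with ABC294640 (SE 0.170, limma adjusted p = 0.406) and by -0.30 with enzalutamide plus ABC294640. The kinase gene ULK1, ATG7, which encodes the enzyme that activates ATG8 proteins, the ligase subunit gene ATG16L1, the lipid transporter gene ATG9A, and UVRAG and VPS18, which act in membrane tethering and fusion, had mean PF-543 effects of 0.05, 0.10, 0.06, 0.04, -0.11 and 0.06.

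Counts over the whole set were read against all genes in each comparison with DMSO. For PF-543, 0 of 41 members passed (0.565% of all genes). At an unadjusted p under 0.05, 7 members were higher and 1 was lower (15.5% of all genes). Arrays of PF-543 and DMSO did not overlap for 10 members, 7 higher and 3 lower (20.2% of all genes). The members' median log2 difference was 0.04, against -0.01 over all genes. The 8 members at the unadjusted threshold are close to the background share.

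For enzalutamide against DMSO, 0 of 41 passed (0.311% of all genes), and 1 member was higher and 4 were lower at an unadjusted p under 0.05 (12.9% of all genes). The member median was -0.03. For ABC294640 against DMSO, 0 of 41 passed (0% of all genes), and 1 was higher and 2 were lower at the unadjusted threshold (9.57% of all genes). The alternative prior passed RRAGC for enzalutamide, among 266 of all genes, and no member for PF-543 or ABC294640.

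For enzalutamide plus PF-543 against DMSO, 0 of 41 passed (2.02% of all genes), and 6 members were higher and 3 lower at the unadjusted threshold (18.7% of all genes). Its arrays did not overlap those of DMSO for 13 members, 7 higher and 6 lower (23.7% of all genes). For enzalutamide plus ABC294640 against DMSO, 0 of 41 passed (0.701% of all genes), and 4 were higher and 2 lower at the unadjusted threshold (16% of all genes). There the arrays did not overlap for 5 higher and 3 lower members (19.2% of all genes). The alternative prior passed ATP6V0D1 and GABARAPL1 for the first combination, among 1121 of all genes, and LAMP1 and RRAGC for the second, among 599.

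Comparisons made without the DMSO arrays were also read. For PF-543 added to enzalutamide, 0 of 41 passed (0.0283% of all genes), and 9 members were higher and 1 lower at the unadjusted threshold (7.83% of all genes). The 9 were LIPA, TFE3, MITF, FNIP1, RRAGC, MAP1LC3B, GABARAPL1, WIPI1 and BECN1, and the lower gene was ATP6V0D1. The member median was 0.07, against 0.005 over all genes, and 30 of 41 members lay above 0, against 51.2% of all genes. The same 2 enzalutamide arrays stand on the other side of this comparison and of the next.

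For ABC294640 added to enzalutamide, 0 of 41 passed (0% of all genes), and 4 members were higher and 1 lower at the unadjusted threshold (6.78% of all genes). The 4 were CTSA, MAP1LC3B, GABARAPL1 and WIPI1. For enzalutamide added to PF-543, 0 of 41 passed (0.311% of all genes), and 2 were higher, CTSL and MITF, and FNIP2 was lower at the unadjusted threshold (8.27% of all genes). For enzalutamide added to ABC294640, 0 of 41 passed (0.0792% of all genes) and 0 reached the unadjusted threshold (6.95% of all genes). The alternative prior passed MITF for enzalutamide added to PF-543, among 147 of all genes, and no member in the other comparisons of this kind.

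The inhibitors were compared at the same dose and time on the enzalutamide background. Between enzalutamide plus PF-543 and enzalutamide plus ABC294640, 0 of 41 members passed (0.0961% of all genes), and 5 were higher with PF-543 at an unadjusted p under 0.05 (7.21% of all genes). These were LAMP2 (0.20), NPC1 (0.29), LIPA (0.25), MITF (0.68) and RRAGC (0.22). The MITF difference had a 95% interval of 0.25 to 1.12 (limma adjusted p = 0.467). GABARAPL1 differed by 0.02 and MAP1LC3B by -0.06. For 40 of the 41 members, all but MITF, the 95% interval of the difference lay within 1 log2 unit of 0, which leaves room for differences under 2-fold. These 40 include TFEB, which was dim and had no detection call.

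For the mean PF-543 effect, 0 of 41 passed (0.351% of all genes), and 9 members were higher and 1 lower at the unadjusted threshold (14.3% of all genes). The member median was 0.06, against -0.004 over all genes. The alternative prior passed ATP6V0D1, FNIP1, MAP1LC3B and GABARAPL1, among 458 of all genes, where 62 had passed. For the mean enzalutamide effect, 0 of 41 passed (0.882% of all genes), and 2 were higher and 3 lower at the unadjusted threshold (13% of all genes), and the alternative prior passed FNIP2, among 429 of all genes. For the difference between the PF-543 effects with and without enzalutamide, 0 of 41 passed (0% of all genes), with MITF and RRAGC higher at the unadjusted threshold (8.07% of all genes).

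The intervals bound what may have been missed. For the mean PF-543 effect the 95% interval lay within 1 log2 unit of 0 for all 41 members and within 0.5 for 40 of them. For the mean enzalutamide effect the counts were 41 and 37. At 6 h, changes of 2-fold or more in either mean effect lay outside the interval of every measured member, while smaller ones were not bounded in this way. TFEB lay below the first quartile of every array and had no detection call, so its interval may not bound a change in its transcript. The MITF mean PF-543 effect averages values of opposite sign. In single comparisons the interval of MITF reached 1.41 (enzalutamide added to PF-543) and that of FNIP2 reached -1.05 (enzalutamide added to ABC294640), and FNIP2 also passed 1 log2 unit for enzalutamide against DMSO (-1.02). The MITF interval also passed 1 log2 unit for enzalutamide plus PF-543 against DMSO, for PF-543 added to enzalutamide, for PF-543 against ABC294640 with enzalutamide, and for the difference of the PF-543 effects.

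**Figure D3:**
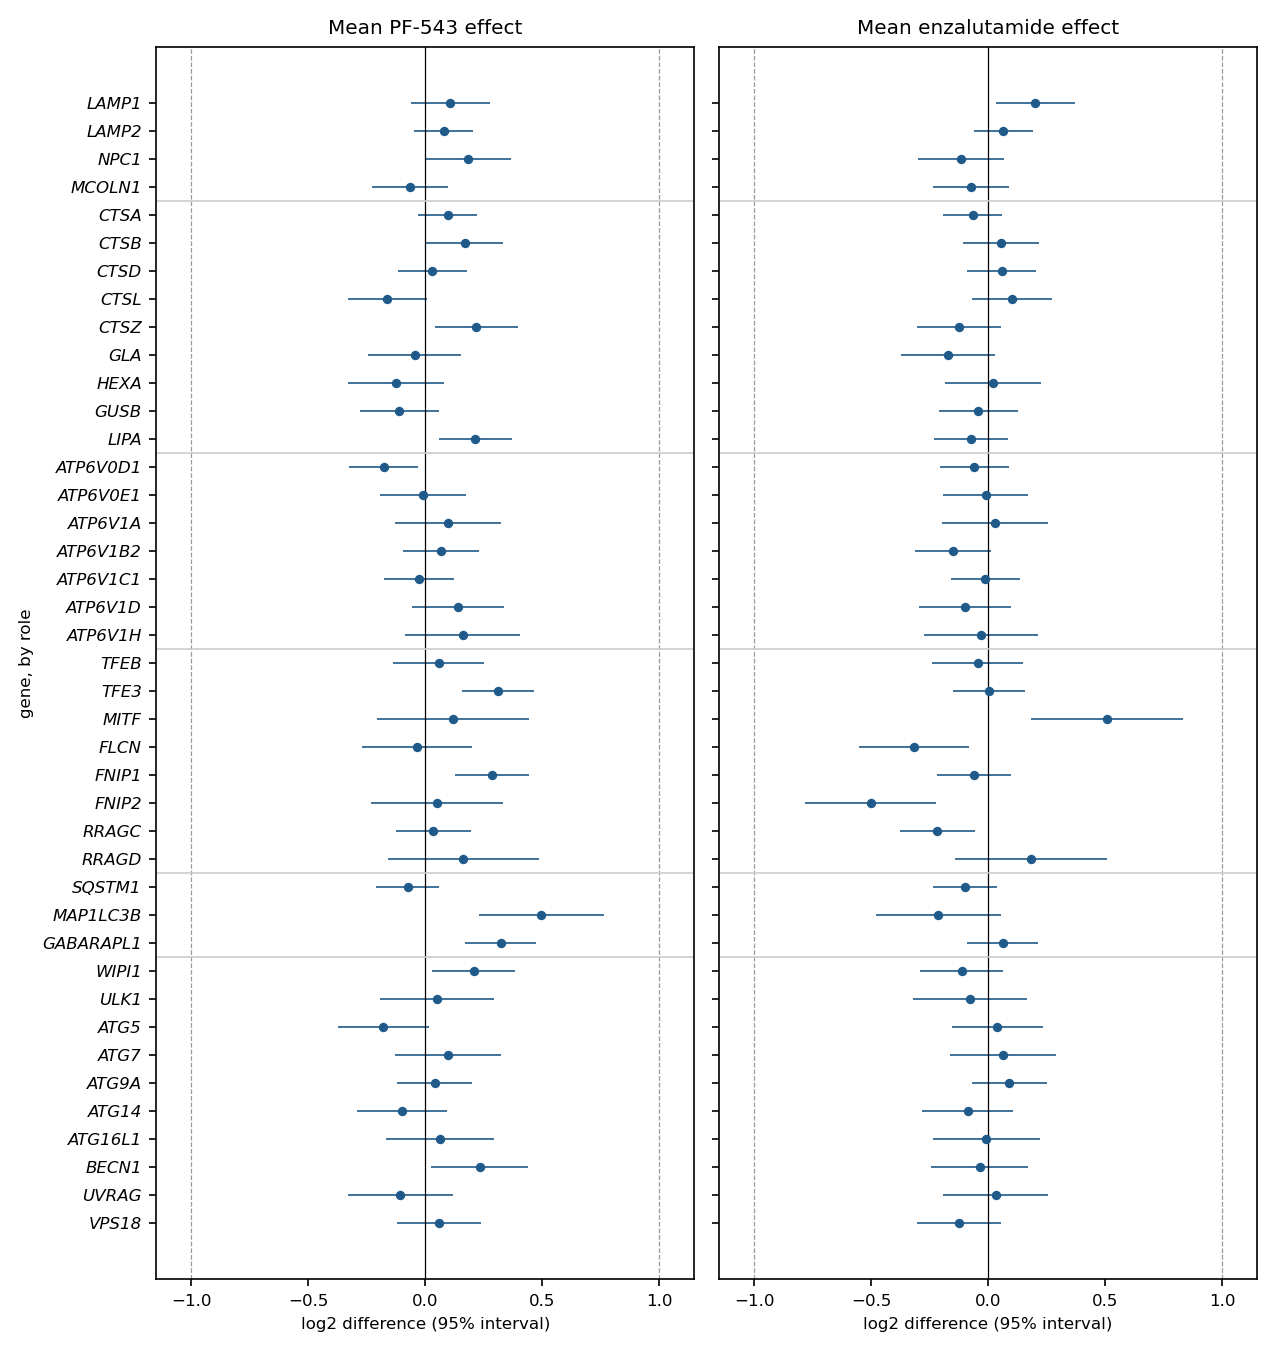
For each of the 41 members the point is the mean PF-543 effect or the mean enzalutamide effect in log2 units and the bar is its 95% interval, with dashed lines at a change of 1 log2 unit. Every bar lies within the dashed lines, and the GABARAPL1 bar for PF-543 runs from 0.17 to 0.47.

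The effect of a drug with and without the other was set side by side where the comparisons share no array. PF-543 against DMSO and PF-543 added to enzalutamide had the same sign for 29 of 41 members, of which 21 were higher and 8 lower. That is 70.7% of members, against 55.3% of all genes. TFE3, FNIP1, MAP1LC3B and GABARAPL1 were higher at an unadjusted p under 0.05 in both, and 1.65% of all genes reached that threshold with the same sign in both. Enzalutamide against DMSO and enzalutamide added to PF-543 had the same sign for 27 members (65.9%, against 53.4% of all genes), and FNIP2 reached the threshold in both (1.76% of all genes). For ABC294640, 22 members had the same sign (53.7%, against 50.8%), and none reached the threshold in both (0.543% of all genes). Enzalutamide against DMSO and enzalutamide added to ABC294640 had the same sign for 19 members (46.3%, against 50.5%), and none reached the threshold in both (1.1% of all genes). These shares are descriptions, since genes are not independent.

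**Figure D4:**
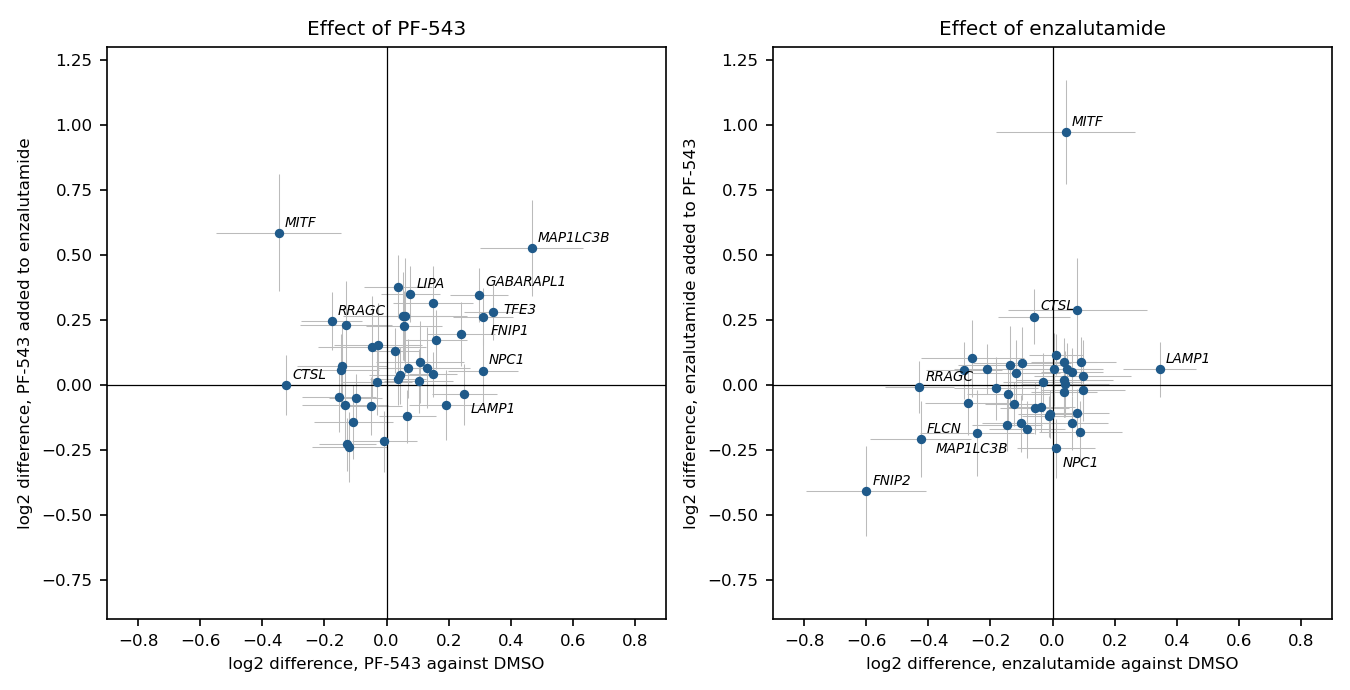
Each point is a member, with log2 differences on both axes and bars for the SE: on the left PF-543 against DMSO (horizontal) and PF-543 added to enzalutamide (vertical), on the right enzalutamide against DMSO and enzalutamide added to PF-543. On the left GABARAPL1, MAP1LC3B, TFE3 and FNIP1 are positive on both axes and MITF is not (-0.35 and 0.58), and on the right FNIP2 is negative on both (-0.60 and -0.41).

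Genes with the printed E-box had lower medians than the other members in most contrasts. Their medians were higher only for enzalutamide against DMSO and for enzalutamide added to ABC294640. The contrasts reuse the means of the same 6 groups, so they are not separate observations, and the gaps between the medians were small and not tested. The 8 with TCACGTG had a median mean PF-543 effect of 0.03 on the log2 scale, against 0.08 for the 22 members whose promoter lacked it. For PF-543 added to enzalutamide the medians were -0.01 and 0.15, and for enzalutamide plus PF-543 against DMSO -0.055 and 0.062. For enzalutamide against DMSO they were -0.02 and -0.10, for enzalutamide added to ABC294640 0.05 and 0.02, and for the mean enzalutamide effect -0.06 in both. FNIP1 (0.29) was the only holder among the 4 genes that were higher at the unadjusted threshold in both PF-543 comparisons.

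Other genes of the same pathways were counted from 4 further lists. Of 48 measured lysosomal proteins outside the set (59 listed), 1 higher gene passed for PF-543 against DMSO (0.565% of all genes). For the mean enzalutamide effect 1 higher and 1 lower gene passed (0.882% of all genes). GALNS, a sulfatase that acts on glycosaminoglycans, rose with PF-543 against DMSO by 0.56 on the log2 scale (limma adjusted p = 0.0455). GALNS had -0.18 when PF-543 was added to enzalutamide and 0.05 with enzalutamide plus PF-543 against DMSO, and the difference between the PF-543 effects was -0.74 (SE 0.165, limma adjusted p = 0.416). IDUA, another glycosaminoglycan hydrolase, rose with the mean enzalutamide effect by 0.42 (limma adjusted p = 0.0313). That mean averages 0.635 for enzalutamide against DMSO (limma adjusted p = 0.0509) and 0.207 for enzalutamide added to PF-543 (limma adjusted p = 0.667). When enzalutamide was added to ABC294640, which is not part of that mean, IDUA had -0.28, and enzalutamide plus ABC294640 against DMSO gave 0.04. SLC36A1, a lysosomal amino acid transporter gene, fell with the mean enzalutamide effect by 0.57 (limma adjusted p = 0.0229). Its values were 9.88, 9.89 and 9.53 with DMSO and 9.27 and 9.18 with enzalutamide, and it had -0.47 when enzalutamide was added to ABC294640. For IDUA and SLC36A1 alike, that last comparison rests on the single ABC294640 array.

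Of 45 measured autophagy genes outside the set (50 listed), 1 higher and 1 lower gene passed for enzalutamide plus PF-543 against DMSO (2.02% of all genes). For the mean enzalutamide effect 1 lower gene passed (0.882% of all genes). MAP1LC3A, which encodes an LC3 isoform, fell with enzalutamide plus PF-543 against DMSO by 0.61 (limma adjusted p = 0.0335). It also fell with the mean enzalutamide effect, by 0.53 (limma adjusted p = 0.0259). When enzalutamide was added to ABC294640, a comparison with the single ABC294640 array, it had 0.18. MAP1LC3A was dim, at 4.66, 4.97 and 4.82 with DMSO, 3.99 and 4.32 with enzalutamide, and 4.18, 4.45 and 3.98 with enzalutamide plus PF-543, near or below the first quartile of the arrays. SNAP29, a fusion protein of autophagosomes and lysosomes, rose with enzalutamide plus PF-543 against DMSO by 0.41 (limma adjusted p = 0.0451). Its differences from DMSO that did not pass were 0.35 with PF-543, 0.17 with enzalutamide and 0.29 with enzalutamide plus ABC294640. With the single ABC294640 array the difference was 0.29. None of 15 further V-ATPase genes (18 listed) and none of 32 regulators of the kinase mTORC1 (34 listed) passed in a limma fit in any of the 13 contrasts.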

How the data were processed

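The deposited values were log2 expression per probe set, made by the authors with RMA in Transcriptome Analysis Console 4.02, per the submitters' processing notes. RMA gives no detection call, and the scanner files were not used here. A shift shared by most genes would largely be lost in the scaling that RMA applies. The deposited arrays still differed in their dim range. Their first quartiles were 4.65 to 4.69 with DMSO and 4.57 to 4.63 on treated arrays, without overlap. Probe sets with 1 gene symbol (17709 of 21448) were kept, and the one with the highest mean stood for a gene (17687 genes). Groups came from the sample labels. With R 4.3.3, limma 3.58.1 fitted 1 mean per group over all 15 arrays, and eBayes moderated the spread. P-values were two-sided and adjusted by the Benjamini-Hochberg method over all genes, with a threshold of 0.05. The fit was tested on simulated data. Figures were drawn with Python 3.11.15 and matplotlib 3.10.9. Values on every array were given for at least the 1 or 2 members with the smallest p of each role, for SQSTM1 as the cargo receptor beside the ATG8 genes, and for any that passed. The members, lists and splits of the arrays were chosen with earlier results of these data known. Alternatives were quantile, cyclic loess and median scaling, a filter on dim genes, all probe sets of a gene, array weights, a robust and trended prior, a fit on only the arrays compared, a replicate block, and leaving out each array. RefSeq promoter sequences (GRCh38.p14) were searched as letters.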

Additional observations from a re-analysis of the deposited data

How the results depend on the processing

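The count of members that passed was 0 in every comparison as reported, and of 329 such counts under other settings 320 also stayed at 0. Many of these settings left out 1 array, which lowers the precision. Each member had 1 probe set, so using all probe sets left the member values unchanged. Counts under such settings had little room to rise. Leaving out the dimmest 25% of genes passed 1 member (GABARAPL1) for enzalutamide plus PF-543 against DMSO and 1 for the mean PF-543 effect. The robust and trended prior passed 1 for enzalutamide against DMSO, 2 for enzalutamide plus PF-543 against DMSO, 2 for enzalutamide plus ABC294640 against DMSO, 1 for enzalutamide added to PF-543, 4 for the mean PF-543 effect, 1 for the mean enzalutamide effect and 4 for any difference among the 6 groups. It also passed more of all genes (1121 for enzalutamide plus PF-543 against DMSO, where 358 passed as reported). The cause was not tested.

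No array left out in turn brought a member past the threshold. The median log2 difference of the members moved more. For enzalutamide plus ABC294640 against DMSO it was -0.028 after quantile scaling and -0.025 after cyclic loess, against 0.00 as reported, and for enzalutamide added to ABC294640 it was 0.018 after quantile scaling. With each array left out in turn, it ran from -0.040 to 0.013 for enzalutamide plus ABC294640 against DMSO, from 0.015 to 0.10 for ABC294640 added to enzalutamide, and from 0.032 to 0.081 for the mean PF-543 effect. It ran from -0.015 to 0.045 for enzalutamide added to ABC294640, from -0.002 to 0.057 for PF-543 against ABC294640 with enzalutamide, and from -0.037 to 0.017 for enzalutamide added to PF-543. It ran from 0.025 to 0.082 for enzalutamide plus PF-543 against DMSO and from 0.060 to 0.105 for PF-543 added to enzalutamide. The medians for PF-543 against DMSO, PF-543 added to enzalutamide, their mean, and enzalutamide plus PF-543 against DMSO stayed above 0 with any array left out, while those for enzalutamide plus ABC294640 against DMSO, enzalutamide added to either inhibitor, and PF-543 against ABC294640 with enzalutamide changed sign.

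Replicate numbers did not pair the arrays: of 26 pairs with the same number, 0 had correlated deviations over 0.1 (from -0.037 to 0.072). With the replicate block, the ABC294640 array was left out, 0 members passed in any comparison, and the median for ABC294640 added to enzalutamide was 0.051, against 0.027. Of 356 values of named genes under other settings, 348 kept their side of the threshold and their direction, 8 passed it and 0 reversed.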
